A study of Mus musculus with 2 samples.

Results

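The genes described here are Ins1 and Ins2, the pair of insulin genes of the mouse, and Iapp, which encodes islet amyloid polypeptide (amylin). They were taken by symbol and are 3 of the 31053 genes listed for each library. Their identifiers are ENSMUSG00000035804 (Ins1), ENSMUSG00000000215 (Ins2) and ENSMUSG00000041681 (Iapp). Together they held 58.6% of all counted molecules in the CD library and 56.4% in the HFD library.

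The material was pancreatic islets of C57BL/6J mice at 13 weeks of age, released with collagenase, picked by hand and dispersed into single cells. The HFD library came from mice on a high-fat diet, used as a model of prediabetes, and the CD library from the comparison group, whose abbreviation the labels leave unexpanded. No allele, transgene or other agent is named for either group, and the sources used here give neither the length of the diet nor the number of mice pooled. The study asked which subpopulations of α, β and δ cells were present. There was 1 library per group, so no difference between the groups has a replicate check, and the library and the diet cannot be told apart.

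β cells make insulin as a preproprotein. The signal peptide is removed in the endoplasmic reticulum, disulfide bonds form there, and prohormone convertases and carboxypeptidase E then cut out the C-peptide inside secretory granules, where insulin is stored with zinc. Amylin is cut from its own precursor by the same convertases, is amidated at its end, and leaves the β cell with insulin. It slows gastric emptying and promotes satiety, and its human form, unlike that of the mouse, can aggregate into islet amyloid. Most mammals have a single insulin gene. The mouse has the ancestral Ins2 and the copy Ins1, which lacks an intron of Ins2. Amylin transcripts have also been described in δ cells of rodents.

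In the GENCODE annotation of GRCm38, the build also called mm10, Ins1 lies at chr19:52264297-52265476 on the plus strand with 2 exons. The main Ins2 transcript lies at chr7:142678659-142679726 on the minus strand with 3 exons, and longer transcripts of that gene reach to position 142743381. Iapp lies at chr6:142298423-142303961 on the plus strand with 3 exons, within the span of Slco1a5, an organic anion transporter gene on the opposite strand, none of whose exons overlaps it. The coding sequences of Ins1 (327 bases) and Ins2 (333 bases) were identical at 92.4% of 327 aligned bases, with 6 gap columns where Ins2 has bases that Ins1 lacks. The last 120 coding bases of each, which encode the end of the C-peptide, the A chain of insulin and the stop codon, are shown because the division of reads between both genes rests on how far they differ. Capitals mark bases that differ between both genes or stand against a gap.

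Ins1: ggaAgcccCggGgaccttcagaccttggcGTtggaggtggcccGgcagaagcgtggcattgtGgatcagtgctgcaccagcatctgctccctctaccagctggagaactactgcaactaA
Ins2: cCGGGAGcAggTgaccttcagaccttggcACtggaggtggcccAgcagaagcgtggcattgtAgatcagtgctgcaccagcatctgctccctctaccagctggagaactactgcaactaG

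The stretch that encodes the A chain is nearly the same in both. Of 449 windows of 30 bases in the main Ins2 transcript, 50 also occurred in the Ins1 transcript, and of 389 windows of 90 bases, 0 did. The sources used here do not say how reads that fit both genes were counted, so the split between Ins1 and Ins2, and their sum if such reads were dropped, are uncertain to that extent.

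The promoters are shown because all 3 genes were far higher in insulin cells than in most other classes. The RefSeq promoter table matched 2 of the 3, Ins1 and Iapp. Each sequence is the 250 bases before the start site (GRCm38.p6), at chr19:52264047-52264296 and chr6:142298175-142298424, both on the plus strand. Capitals mark TAAT on either strand (TAAT or ATTA), the core that homeodomain factors such as Pdx1 can bind.

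Ins1: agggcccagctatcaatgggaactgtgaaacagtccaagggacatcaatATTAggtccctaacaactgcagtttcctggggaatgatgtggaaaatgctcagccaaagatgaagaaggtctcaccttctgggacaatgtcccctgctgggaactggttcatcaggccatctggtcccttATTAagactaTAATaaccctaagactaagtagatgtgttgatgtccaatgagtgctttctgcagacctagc
Iapp: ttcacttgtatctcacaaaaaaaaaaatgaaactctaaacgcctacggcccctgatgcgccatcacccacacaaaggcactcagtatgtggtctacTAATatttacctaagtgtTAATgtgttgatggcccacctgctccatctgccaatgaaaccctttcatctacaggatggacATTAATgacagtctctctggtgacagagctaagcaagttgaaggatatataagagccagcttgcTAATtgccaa

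The Ins1 promoter held 3 matches and the Iapp promoter 5, of which a pair overlaps as ATTAAT. Among 32851 promoters of the same length, 54.9% held at least 1 match, 17.3% at least 3 and 5.54% at least 5. CANNTG, the E-box that factors such as Neurod1 bind, occurred 2 times before Ins1 and 3 times before Iapp, and 66.2% of all promoters held it. These matches describe the letters only and were not tested against the levels below.

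Levels are given as percent of all UMIs, the unique molecular identifiers that count transcript molecules, in a cell or summed over a class of cells. Because the tags come from the 3′ end of each transcript, counts were not divided by gene length. All barcodes together had 265836346 UMIs in CD and 271527648 in HFD. Cells were defined by a minimum of 1500 UMIs, a minimum of 500 genes and no more than 15% mitochondrial UMIs, which left 9667 CD and 12062 HFD cells. Median depth was 21895 UMIs per cell in CD and 17673 in HFD, and the median mitochondrial share was 2.76% and 4.20%. The libraries shared 26 barcodes among kept cells, 10 of them insulin cells in both. All intervals are exact 95% intervals (Clopper-Pearson for shares, conditional binomial for ratios) that cover counting error only and describe these libraries.

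Cells with at least 30% of UMIs from Ins1 and Ins2 are called insulin cells. α cells had at least 10% Gcg (glucagon), δ cells at least 3% Sst (somatostatin) and PP cells at least 20% Ppy (pancreatic polypeptide), and 144 CD and 143 HFD cells that met more than 1 of these rules were left out of every class. The markers below leave out the genes of these rules and Iapp. All 5 other β-cell markers, among them the glucose transporter gene Slc2a2 and the transcription factor genes Mafa and Nkx6-1, were highest in insulin cells in both libraries. Of the 5 other δ-cell markers 4 were highest in δ cells, including the δ-cell transcription factor gene Hhex at 218 CPM (counts scaled to a common total) in CD and 228 in HFD against 2.32 and 2.08 in insulin cells. The α-cell list had 3 of 6 such markers highest in α cells in CD and 4 of 6 in HFD, and the PP list 1 of 3 in both, so the name of the PP cells rests mainly on Ppy.

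Insulin content divided the kept cells into 2 bodies with few cells between them. In CD 30.9% of cells had less than 10% insulin and 67.9% had 30% or more, and the 114 cells in between made up 1.18%. In HFD the corresponding shares were 36.3% and 61.9%, with 221 cells (1.83%) in between. Around the threshold, 35 CD cells lay between 25 and 30% and 45 between 30 and 35%, and in HFD 41 and 48. The other thresholds lay among more cells. From 1.5 to 3% Sst there were 170 CD and 178 HFD cells, against 80 and 80 from 3 to 4.5%. From 10 to 20% Ppy there were 143 and 313, against 83 and 121 from 20 to 30%. From 5 to 10% Gcg there were 142 and 250, against 137 and 261 from 10 to 15%. No kept cell of any class in either library was without Ins1, Ins2 or Iapp UMIs.

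**Figure D1:**
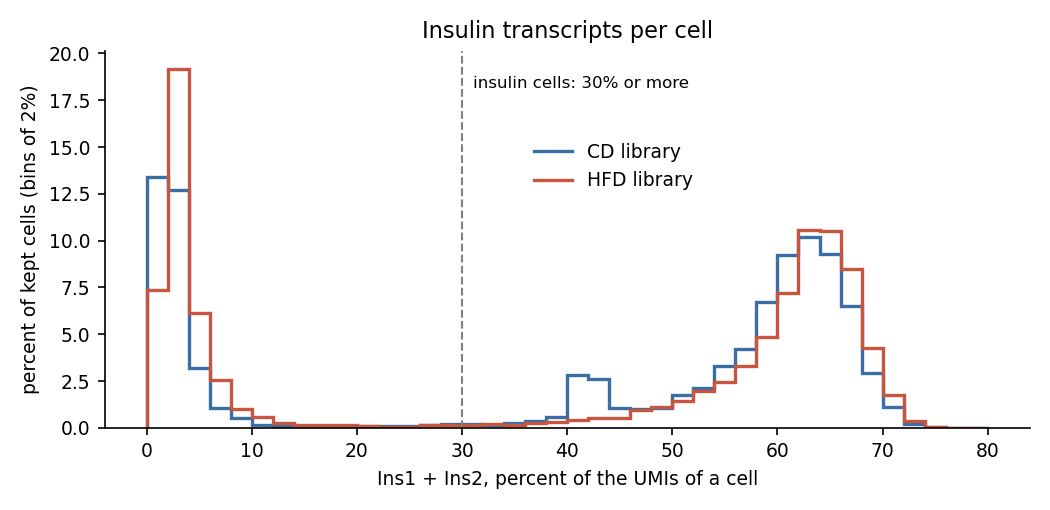
Percent of kept cells (y axis) by the percent of each cell's UMIs that came from Ins1 and Ins2 (x axis, bins of 2%), with 1 line per library and a dashed line at the 30% threshold. Both libraries have a peak below 10% and one between 60 and 66%, and the CD library has a further bump at 40 to 45%.

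The CD library had a further group of cells that the HFD library did not show to the same extent. Between 40 and 45% insulin lay 568 CD cells with a median of 3248 UMIs and a mitochondrial share of 11.6%, against 146 HFD cells with a median of 20693.5 UMIs and 4.67%. In all, 748 CD insulin cells and 572 HFD insulin cells had fewer than 10000 UMIs. Within these shallow cells the median Ins1 share of insulin was 22.2% in CD and 25.9% in HFD, and the median Iapp per 100 insulin UMIs was 16.0 and 9.23. Insulin cells were 67.4% of the kept CD cells (interval 66.4 to 68.3) and 61.6% of the kept HFD cells (60.7 to 62.5), a difference of -5.77 percentage points (-7.58 to -3.96). Counting only insulin cells of at least 10000 UMIs, still as a share of all kept cells, it was -2.78 points. With a mitochondrial limit of 10% it was -2.94 points. Insulin cells under 10000 UMIs had a median mitochondrial share of 11.6% in CD and 5.31% in HFD. The part of depth or mitochondrial share in the difference was not tested. With a threshold of 50% insulin the difference was -0.48 points (-2.35 to 1.40), where the interval spans 0.

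Insulin cells carried 89.4% of all insulin UMIs of the CD library and 89.5% of those of HFD. Their summed Ins1 level was 16.3% of UMIs in CD and 17.0% in HFD. Their Ins2 level, the highest of the 3 genes, was 44.7% and 45.2%. Their Iapp level was 7.31% and 6.49%. The insulin levels themselves are set in part by the rule that chose the cells, and only the ratios within these cells and the levels of Iapp are read further.

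Per cell, the levels spread widely and both libraries overlapped over most of their range. The median insulin cell had 4438 Ins1 UMIs in CD and 4071 in HFD, with 5th and 95th percentiles of 289.7 and 11885.6 in CD and 876.8 and 9469.2 in HFD. Ins2 had a median of 12243 UMIs in CD and 11042 in HFD. For Iapp the medians were 1838 and 1475 UMIs. As a share of the cell's UMIs, Iapp had a 5th percentile, median and 95th percentile of 4.23, 7.04 and 9.55% in CD and 3.63, 6.26 and 8.81% in HFD. The highest Iapp level of any insulin cell in CD was 27.4%.

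Ins1 contributed about 1 in 4 insulin UMIs in both libraries. Its share of Ins1 plus Ins2 in insulin cells was 26.7% in CD and 27.3% in HFD, or 2.74 and 2.66 Ins2 UMIs for each Ins1 UMI. The difference was 0.58 percentage points (0.57 to 0.60) from summed UMIs and 1.06 points from the medians per cell, 26.2% and 27.2%. The SD of the Ins1 share over cells was 3.41 points in CD and 3.86 in HFD. A share fixed at the library's mean would give an SD of 0.51 and 0.43 points from counting alone, so cells differed by 6.71 and 9.05 times the counting spread. The difference between the libraries was smaller than that spread over cells: the 5th to 95th percentiles ran from 20.5 to 30.5% in CD and from 20.6 to 31.3% in HFD.

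A few deep cells used the genes very unevenly. In CD the lowest Ins1 share was 3.30%, from 161 Ins1 and 4725 Ins2 UMIs, and the highest was 90.7%, from 9455 and 972 UMIs. In HFD the lowest was 1.80%, from 318 and 17325 UMIs, and the highest was 79.0%, from 8147 and 2161 UMIs. Counts of this size leave little counting error in these shares. Ins1 shares under 10% occurred in 23 CD cells (0.35% of insulin cells), of which 20 had at least 10000 UMIs, and in 48 HFD cells (0.65%), of which 34 had at least that depth. Shares over 50% were found in 1 CD and 3 HFD cells. These limits were chosen after the values were seen.

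Iapp was lower against insulin in the HFD library. Insulin cells had 12.0 Iapp UMIs per 100 insulin UMIs in CD (11.97 to 11.99) and 10.4 in HFD (10.43 to 10.44), a log2 ratio of -0.199 (-0.200 to -0.197). From medians per cell the values were 11.7 and 10.0, with a log2 ratio of -0.22. The 5th to 95th percentiles over cells were 7.07 to 18.2 in CD and 5.99 to 15.6 in HFD, so the distributions overlapped widely. Among insulin cells of at least 10000 UMIs the log2 ratio was -0.20 and the difference in Ins1 share 0.56 points. Both came from summed UMIs, to which shallow cells add little, so they do not test the medians per cell. Each library's insulin cells were also split by depth into 5 groups of like size. From shallowest to deepest, the median Ins1 share was 22.8, 25.2, 26.7, 27.1 and 27.1% in CD. In HFD it was 26.0, 26.4, 27.1, 27.6 and 28.3%, so the gap was widest in the shallowest cells. Median Iapp per 100 insulin UMIs was lower in HFD in each group. The Iapp level itself had a log2 ratio of -0.17. That is short of a 1.5-fold difference, which 13.5% of the 13329 genes with at least 50 UMIs in the higher library passed in insulin cells. By Cd79a, a B-cell receptor gene that was also counted in insulin cells here, the ratio of Iapp to insulin changed in size: its log2 ratio was -0.18 among cells with at least 2 Cd79a UMIs and -0.09 among the other insulin cells. Cells with at least 2 Cd79a UMIs numbered 2560 of 6515 in CD and 656 of 7433 in HFD, and the part of this in the result was not tested.

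The cells at both ends of this ratio were few. In CD the ratio ran from 1.73 Iapp UMIs per 100 insulin UMIs, in a cell of 33835 UMIs, to 62.0. In HFD it ran from 0.95, in a cell of 25743 UMIs with 184 Iapp UMIs, to 91.7, in a cell with 3817 Iapp, 1195 Ins1 and 2967 Ins2 UMIs. Values under 4 were found in 33 CD and 130 HFD insulin cells, or 0.51 and 1.75%, and 6 and 30 of them had at least 10000 UMIs. Their median mitochondrial shares of 8.36 and 10.6% stood above those of all insulin cells, 2.70 and 3.78%, and the part of this in the result was not tested. Values over 30 were found in 8 CD and 21 HFD cells.

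**Figure D2:**
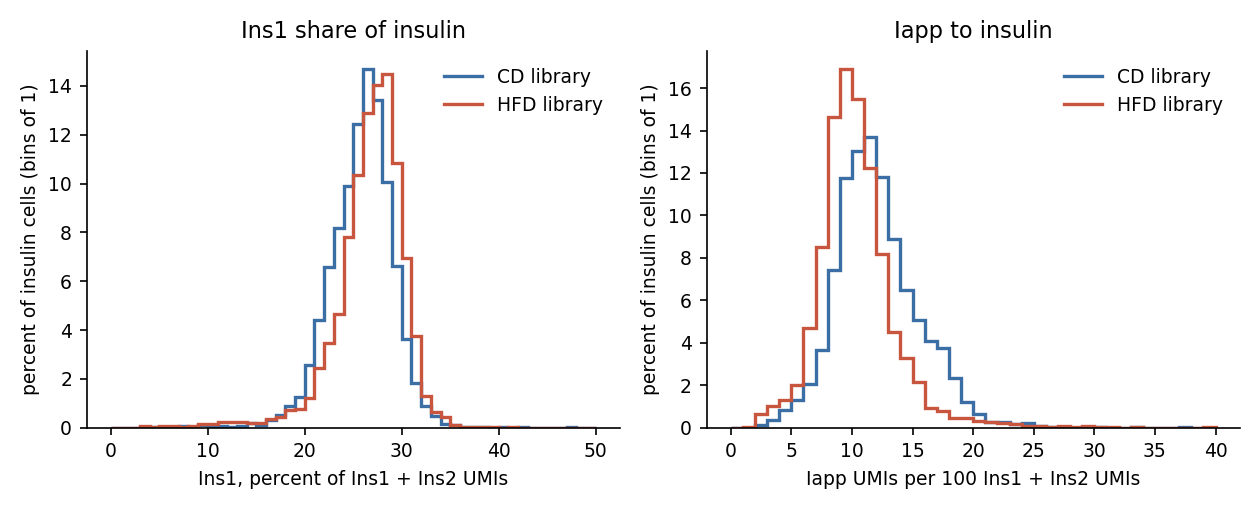
Left, percent of insulin cells (y axis) by their Ins1 percent of insulin UMIs (x axis). Right, by their Iapp UMIs per 100 insulin UMIs, both in bins of 1 unit with 1 line per library. The axes end at 50 and 40, beyond which lie 1 and 1 CD cells and 3 and 8 HFD cells. The HFD line sits to the right of the CD line for Ins1 (medians 27.2 and 26.2%) and to the left for Iapp (medians 10.0 and 11.7).

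The ratios changed with the insulin content of the cell. In CD the pooled Ins1 share was 22.8% among cells of 30 to 35% insulin and 29.3% among those of 70 to 75%, and in HFD 20.4 and 28.3%. Iapp per 100 insulin UMIs took the opposite course, from 16.1 to 7.78 in CD and from 16.6 to 7.22 in HFD. Part of that course follows from insulin standing in the denominator. Against UMIs outside these 3 genes, Iapp was 8.32 per 100 such UMIs at 30 to 35% insulin, 25.3 at 60 to 65% and 23.8 at 70 to 75% in CD. In HFD the corresponding values were 8.78, 22.3 and 21.8. This denominator shrinks as the insulin share grows, so part of this rise is built in as well. At equal insulin content from 40% upward, the HFD library had fewer Iapp UMIs per 100 insulin UMIs in each of 7 bins of 5%, for example 12.0 against 13.8 at 55 to 60%.

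**Figure D3:**
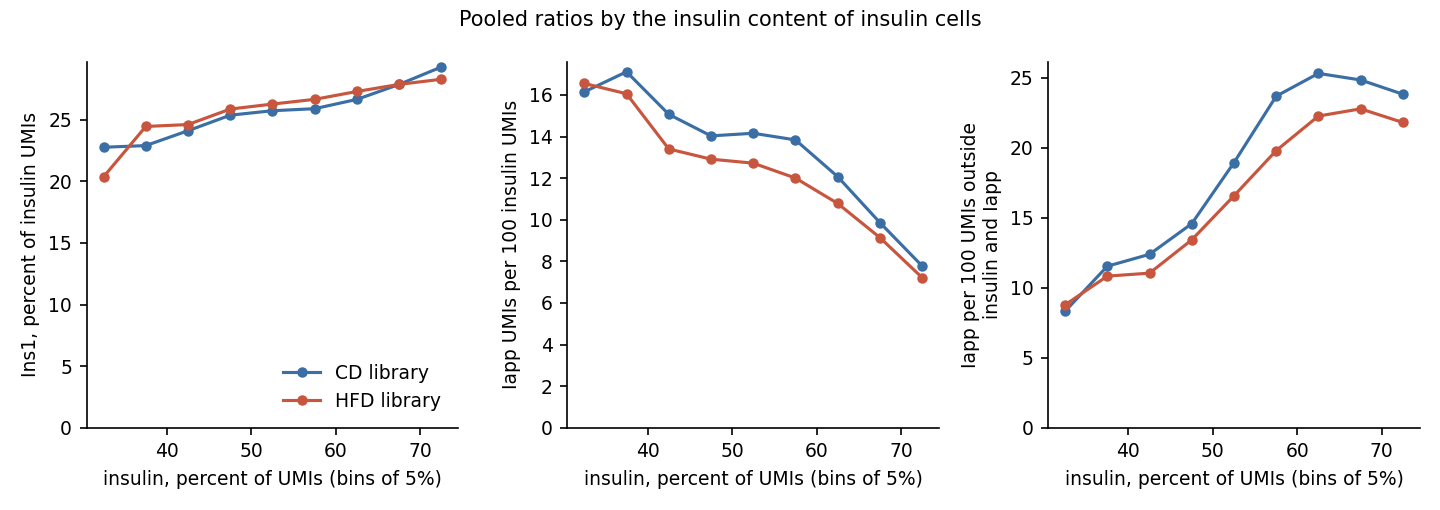
Pooled values (y axes) of kept cells grouped by the percent of UMIs from insulin (x axis, bins of 5% from 30 to 75%), with 1 line per library. The panels show the Ins1 percent of insulin, Iapp per 100 insulin UMIs and Iapp per 100 UMIs outside Ins1, Ins2 and Iapp. The first rises with insulin content, the second falls, and the third rises up to 60 to 70% insulin.

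Across cells, the Ins1 share also moved with depth and mitochondrial share. Its Spearman correlation with UMIs per cell was 0.47 over 6515 CD insulin cells and 0.28 over 7433 HFD insulin cells, and 0.31 and 0.29 among those of at least 10000 UMIs. With the mitochondrial share it was -0.50 and -0.24. The ratio of Iapp to insulin was hardly related to the Ins1 share, at -0.20 in CD and -0.01 in HFD. Cells of a library share their depth and free RNA, and each of these values has UMIs of the same cell on both sides, so they are descriptions.

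Among 1314 genes with a mean of at least 1 UMI per insulin cell, no gene followed either ratio closely. The 5 with the highest correlation with the Ins1 share in both libraries were Ssr4, Rpl41, Spcs1, Cpe and Sec11c, with values of 0.23 to 0.27 in CD and 0.18 to 0.22 in HFD. Ssr4, Spcs1 and Sec11c encode parts of the machinery that moves proteins into the endoplasmic reticulum and removes signal peptides, and Cpe encodes carboxypeptidase E. The lowest were mt-Co3, mt-Atp6, mt-Co2, mt-Nd2 and mt-Nd4l, all mitochondrially encoded parts of the respiratory chain or ATP synthase, from -0.36 to -0.12 in CD and -0.19 to -0.12 in HFD. With the ratio of Iapp to insulin, the highest were the ribosomal protein genes Fau, Rpl11, Rpl30, Rps27a and Rpl9, at 0.18 to 0.23 in CD and 0.17 to 0.20 in HFD. The lowest were Ero1lb, mt-Nd5, mt-Nd4l, Mafa and Chga, from -0.36 to -0.20 in CD and -0.24 to -0.17 in HFD. Ero1lb encodes an oxidase that drives disulfide bonding of proinsulin. All of these relations are weak. The ratio of Iapp to insulin had a larger correlation with the insulin share of UMIs, at -0.59 in CD and -0.46 in HFD. The Ins1 share had -0.50 and -0.24 with the mitochondrial share. The part of these in the values of the genes was not tested.

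Cells marked by other genes differed in these ratios to different degrees. Insulin cells with at least 2 UMIs of the cell-cycle genes Mki67 or Top2a had 11.9 Iapp UMIs per 100 insulin UMIs in CD (256 cells) and 10.8 in HFD (206 cells), against 12.0 and 10.4 in the other insulin cells. These cell-cycle cells were deeper, with a median of 45573 UMIs against 26354 in CD and 38443.5 against 23857 in HFD. Cells with at least 2 Cd79a UMIs had 13.0 in CD and 11.5 in HFD, against 11.0 and 10.3 without. Their median depth was 32047.5 UMIs in CD against 25264 without, and 23848.5 against 24068 in HFD. Cells with a UMI of Aldh1a3, a retinal dehydrogenase gene linked to β-cell dedifferentiation, had 14.1 in CD (26 cells) and 11.6 in HFD (374 cells), against 12.0 and 10.4 without. They were deeper, at 51599.5 and 28980.5 UMIs. Cells without a UMI of Ucn3, the urocortin gene of mature β cells, had an Ins1 share of 25.3% in CD and 25.2% in HFD, against 26.8 and 27.4% with it, and were shallower, at 12123 and 13452 UMIs against 28502 and 24861. The part of depth in these differences was not tested.

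Outside insulin cells, insulin was counted at a low level in every class. Counted per cell, the median was 179 insulin UMIs for CD α cells and 189 for HFD α cells. The median δ cell had 173.5 and 188, and the median PP cell 232 and 212. Endothelial cells, which do not make insulin, had 138 and 167, macrophages 149 and 187, and mesenchymal cells 122 and 169. Because the classes differ in depth, these counts are different percentages of UMIs: the median was 1.89% in α cells in CD and 2.49% in HFD, 2.65 and 3.96% in δ cells, and 1.45 and 1.97% in PP cells. Endothelial cells were at 3.03 and 3.66% and macrophages at 3.15 and 4.47%. The median insulin level in α, δ and PP cells was thus below that of macrophages of the same library as a percentage of UMIs, and above it in UMIs per cell. Whether any of it is expression was not tested.

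Barcodes of 10 to 100 UMIs, too few for a cell, were taken as a stand-in for free RNA. They numbered 72533 in CD and 106890 in HFD. Ins1 made up 11.0% of their UMIs in CD and 9.52% in HFD, Ins2 36.2 and 29.9%, and Iapp 5.39 and 4.17%. Their Ins1 share of insulin was 23.4 and 24.2%, below that of insulin cells by 3.34 points in CD (3.23 to 3.45) and 3.13 points in HFD (3.02 to 3.25). Against barcodes of 100 to 500 UMIs the gap was 1.23 and 1.04 points. The insulin counted in endothelial cells had an Ins1 share of 25.8 and 27.2%, and that in macrophages 25.6 and 25.8%. Both were above the barcodes of 10 to 100 UMIs, which thus did not match the insulin of these cells by this share. In those barcodes Iapp per 100 insulin UMIs was 11.4 and 10.6, within 1.05-fold of the insulin cells in both libraries. The summed insulin level of α cells was 5.41% of that in these barcodes in CD and 6.83% in HFD, that of δ cells 9.36 and 10.7%, and that of PP cells 5.41 and 7.58%.

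**Figure D4:**
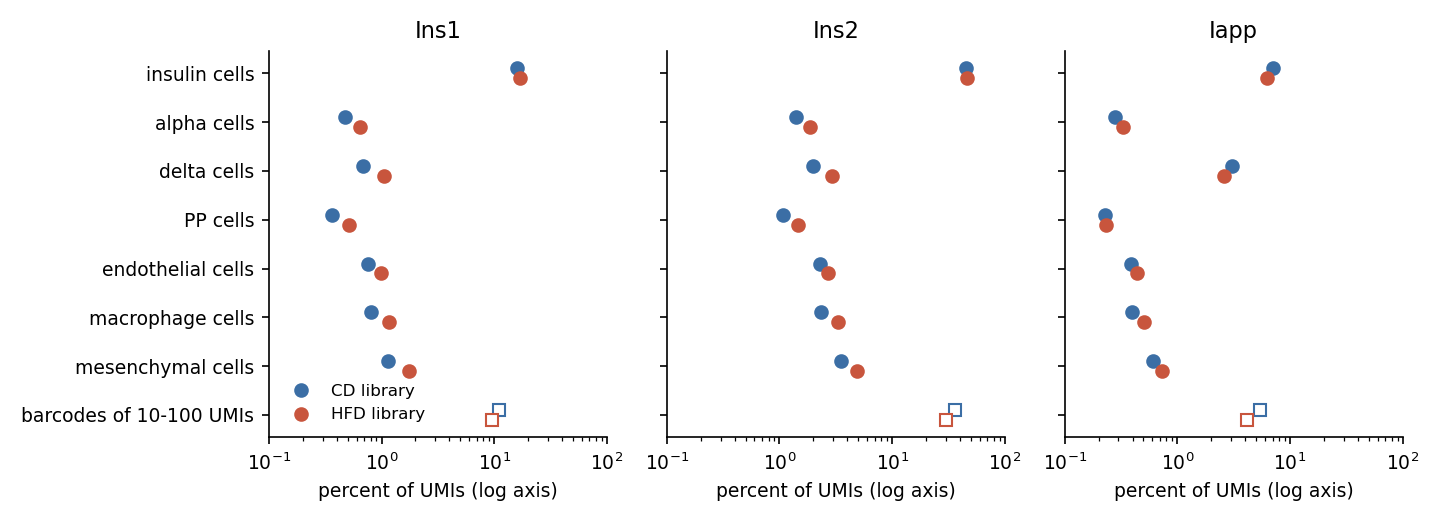
Percent of UMIs (x axis, logarithmic) from Ins1, Ins2 and Iapp in each class (y axis). Filled circles are medians over the cells of a class and open squares are the sums over barcodes of 10 to 100 UMIs, coloured by library. Ins1 and Ins2 are low in every class but insulin cells, whereas Iapp in δ cells is between 2 and 4%, well above the other classes outside insulin cells.

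δ cells stood apart in Iapp. The summed level was 3.34% of UMIs in the 570 CD δ cells (3.32 to 3.36) and 2.77% in the 662 HFD δ cells (2.75 to 2.79). The median per cell was 3.03 and 2.60%, with 5th to 95th percentiles of 1.31 to 5.31% and 1.24 to 4.73%. At least 1% Iapp was found in 98.2% of the CD δ cells (96.8 to 99.2) and 97.9% of those in HFD (96.5 to 98.8). In α cells the corresponding shares were 6.45% (5.16 to 7.94) and 2.04% (1.47 to 2.76), and in PP cells 8.23% (5.49 to 11.8) and 4.49% (2.90 to 6.60). Nearly every δ cell was thus above a level that most α and PP cells did not reach.

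Against insulin, Iapp in δ cells was several-fold above its ratio in the barcodes of 10 to 100 UMIs. δ cells had 75.6 Iapp UMIs per 100 insulin UMIs in CD (75.1 to 76.1) and 65.8 in HFD (65.2 to 66.3), which is 6.63 and 6.21 times the ratio in the barcodes of 10 to 100 UMIs. From medians per cell the ratio was 107 and 66.5. The medians were 14.1 and 12.4 in α cells, 14.1 and 11.6 in PP cells, 13.5 and 12.0 in endothelial cells, 12.4 and 11.1 in macrophages and 12.1 and 10.9 in mesenchymal cells. From summed UMIs, the ratio was 1.70 and 1.33 times that of the barcodes of 10 to 100 UMIs in α cells, 2.18 and 1.32 times in PP cells, 1.19 and 1.35 times in endothelial cells, 1.10 and 1.88 times in macrophages and 1.09 and 1.03 times in mesenchymal cells. Without cells of at least 10% insulin it was 1.80 and 1.34 times in α cells, 2.78 and 1.33 times in PP cells and 10.4 and 6.79 times in δ cells. It was then 1.19 and 1.23 times in endothelial cells, 1.10 and 1.08 times in macrophages and 1.09 and 1.05 times in mesenchymal cells. δ cells were above the other 5 classes in both libraries by sums and by medians. Across δ cells the Iapp level was not higher where the insulin level was higher, with a Spearman correlation of -0.06 in CD (570 cells) and -0.17 in HFD (662 cells), against 0.46 and 0.57 in α cells and 0.31 and 0.67 in PP cells.

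The other genes of the β-cell marker list did not reach the δ-cell level of Iapp relative to insulin cells. Genes outside that list did, such as Mlxipl, at 90.4 and 83.9 CPM in insulin cells and 101 and 133 in δ cells. The summed Iapp level of δ cells was 45.7% of that in insulin cells in CD and 42.6% in HFD. For Ins1 this was 6.09 and 6.47%, for Ins2 7.65 and 6.87%, for Slc2a2 9.26 and 6.27%, for G6pc2 (the islet glucose-6-phosphatase) 7.98 and 7.92%, for Ucn3 5.50 and 10.6% and for Mafa 12.1 and 11.8%. Only Nkx6-1 was also above these, at 26.3 and 19.2%, and it was higher in PP cells, at 42.3 and 37.4%.

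**Figure D5:**
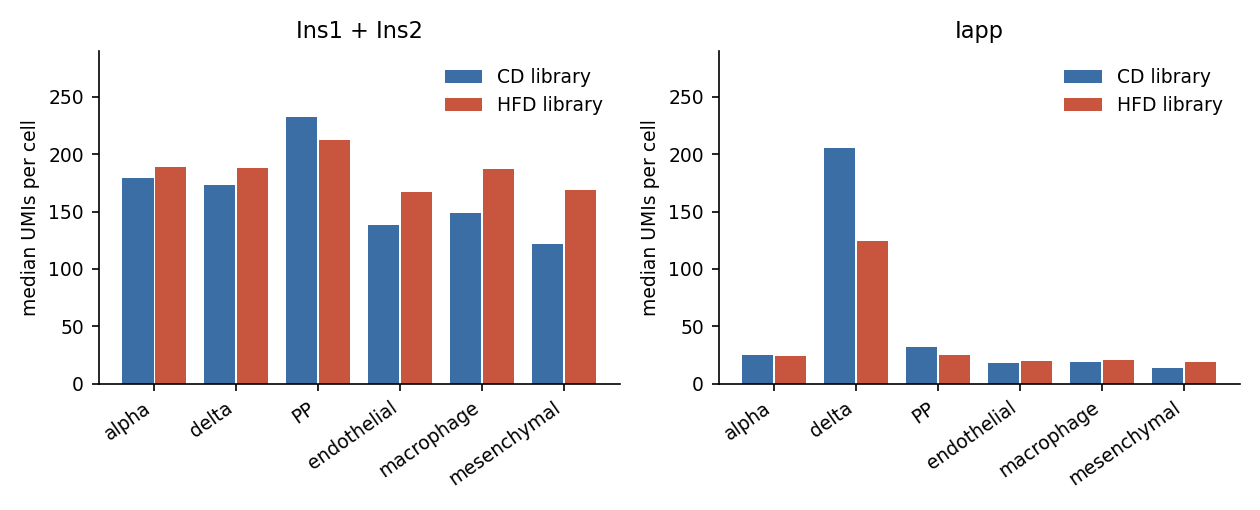
Median UMIs per cell (y axes) of Ins1 plus Ins2 (left) and Iapp (right) in the 6 classes outside insulin cells, with 1 bar per library. Insulin lies between 122 and 232 UMIs in every class and library. Iapp lies between 14 and 32 UMIs in every class but δ cells, where it is 205.5 in CD and 124 in HFD.

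Between the libraries, Iapp in δ cells was lower in HFD, with a log2 ratio of -0.27 (-0.28 to -0.26) from summed UMIs and -0.22 from medians per cell. The median δ cell had 205.5 Iapp UMIs in CD and 124 in HFD, with a median depth of 6442 and 4781 UMIs. Fewer transcripts per cell and a shallower library cannot be told apart from UMIs per cell alone. From summed UMIs, none of the 3 genes passed 1.5-fold in δ cells, against 9.39% of 7658 genes tested. From medians per cell Ins1 did, with a log2 ratio of 0.61, and Ins2 had 0.55. No share over all genes was computed from medians.

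For insulin in the other endocrine classes, the difference between the libraries depended on a few cells, and in δ and α cells its sign did. The log2 ratio of HFD over CD from summed UMIs was 0.08 in α cells (0.07 to 0.08), -0.07 in δ cells (-0.08 to -0.06) and 0.22 in PP cells (0.21 to 0.23). From medians per cell it was 0.40, 0.58 and 0.44, so that the sign in δ cells turned. The medians were also higher in HFD in endothelial cells (0.27), macrophages (0.51) and mesenchymal cells (0.50), so the rise was not particular to endocrine cells. Counted in median insulin UMIs per cell, the log2 ratio was 0.08 in α, 0.12 in δ and -0.13 in PP cells. It was 0.28 in endothelial cells, 0.33 in macrophages and 0.47 in mesenchymal cells. The part of free RNA and depth in these values was not tested. Cells with at least 10% insulin were few, yet held much of the class's insulin. In CD they were 21 of 1272 α cells with 27.7% of its insulin UMIs, 21 of 570 δ cells with 44.6% and 9 of 328 PP cells with 47.8%. In HFD they were 26 of 2005 α cells with 9.95%, 17 of 662 δ cells with 10.7% and 14 of 535 PP cells with 38.1%. Without them the log2 ratios were 0.37, 0.53 and 0.46. With the cells that met more than 1 hormone rule kept in each class, they were -0.51, 0.16 and 0.014, so that the sign in α cells turned. In the barcodes of 10 to 100 UMIs, insulin was lower in HFD, with a log2 ratio of -0.26.

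Iapp in α and PP cells changed with how cells were weighted. In α cells the log2 ratio was -0.38 from summed UMIs, -0.16 without cells of at least 10% insulin and 0.22 from medians per cell, and the 5th to 95th percentiles over cells, 0.16 to 1.14% in CD and 0.17 to 0.80% in HFD, overlapped. In PP cells the ratio was -0.61 from sums, -0.71 without those cells and 0.04 from medians. From summed UMIs, Iapp in PP cells was the only one of these genes past 1.5-fold there, against 8.04% of 6926 genes tested. In α cells 0 of the 3 were, against 8.32% of 10108. In HFD macrophages, a single cell with 5003 Iapp UMIs held 49.8% of the Iapp of that class, and the median macrophage had 19 Iapp UMIs in CD and 21 in HFD.

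Few cells met the insulin rule and another hormone rule. The 25 CD and 9 HFD cells that were also above the Gcg threshold had Ins1 shares of 26.2 and 23.9%, and 12.5 and 9.31 Iapp UMIs per 100 insulin UMIs. In the 19 CD and 21 HFD cells also above the Sst threshold the Ins1 share was 26.5 and 26.0% and the Iapp ratio 12.9 and 10.7. In the 6 CD and 5 HFD cells also above the Ppy threshold they were 25.9 and 26.3%, and 11.4 and 8.50. Doublets, 2 cells in 1 droplet, were not removed here. The median depth of these cells was 27888 and 25157 UMIs with Gcg, 26093 and 21951 with Sst, and 39654.5 and 31965 with Ppy.

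Genes were also ranked by the likeness of their pattern over the 7 classes in both libraries, 14 points, among 872 genes of at least 50 CPM in insulin cells. The Pearson correlation of log2(CPM + 1) with insulin was highest for Slc2a2 and Sytl4 (0.98 each), Prss53 (0.96), Mafa and Tmem215 (0.94 each). Slc2a2, the glucose transporter of the β cell, had 238 CPM in insulin cells in CD and 224 in HFD against 22.1 and 14.0 in δ cells. For Iapp the closest were Insrr (0.96), Spock2 (0.94), Mlxipl (0.92), Pcsk1 (0.91) and Frzb (0.90), which, like Iapp, were counted in both insulin and δ cells. Insrr, the insulin receptor-related receptor gene, had 56.7 and 59.3 CPM in insulin cells and 36.3 and 49.9 in δ cells. Mlxipl, which encodes the glucose-responsive factor ChREBP, had 90.4 and 83.9 CPM in insulin cells and 101 and 133 in δ cells. Frzb, a secreted Wnt antagonist gene, was higher in δ cells, at 175 and 170 CPM against 84.3 and 74.0. Points of a library share its free RNA, so no p is given.

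The genes that make, process and sense these hormones were compared in insulin cells by 4 lists. Over all 13329 genes tested there, 7.20% were past 1.5-fold higher in HFD and 6.32% past 1.5-fold lower, with a median log2 ratio of -0.05. Of 17 transcription factors of the insulin genes, 1 was past 1.5-fold higher and 0 lower, with a median of 0.03. That was Mafa, a direct activator of insulin genes, at 72.3 CPM in CD and 111 in HFD (log2 ratio 0.62). Myt1 had the next farthest ratio, at -0.47, and Pax6 and Nkx6-1, among the most abundant, had 0.24 and 0.36. Pdx1, the activator that binds TAAT, was at 34.0 CPM in CD and 36.3 in HFD.

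Of the 8 genes for folding, processing and amidation, 2 were past 1.5-fold higher and 0 lower, with a median of 0.38. Ero1lb was at 219 CPM in CD and 384 in HFD (0.81), and Pam, the amidating enzyme that finishes amylin, at 151 and 235 (0.64). Cpe was at 920 and 1255 CPM (0.45), and Pcsk1n, an inhibitor of the convertase Pcsk1, at 1261 and 1190 (-0.08). The convertases that cut both precursors were at 101 and 133 CPM for Pcsk1 and 827 and 1066 for Pcsk2. Iapp itself was lower in HFD in the same cells.

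Of the 8 granule genes, 2 were past 1.5-fold higher and 0 lower, with a median of -0.08. Vgf, a secreted granule protein gene, was at 1.92 CPM in CD and 4.96 in HFD (1.37), and Ptprn at 51.4 and 79.3 (0.63). The most abundant were Chga, at 3122 and 2488 CPM (-0.33), and Scg2, at 1696 and 2408 (0.51). Slc30a8, the transporter that brings zinc into the granule, had a ratio of -0.14.

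Of 10 genes for receptors and breakdown of both hormones, 9 had enough UMIs, and 2 were past 1.5-fold higher and 0 lower, with a median of 0.14. Ramp3, a partner subunit of amylin receptors, had 62 UMIs in CD and 130 in HFD (1.10), and Irs2, an adaptor of the insulin receptor, 1836 and 3219 UMIs (0.84). The 7 endothelial markers, whose RNA is foreign to insulin cells, summed to 0.00127% of UMIs in the same cells in CD and 0.00314% in HFD, and their part in the Ramp3 value was not tested. The most abundant were Bace2, a protease that can cut amylin, with a ratio of 0.26, and Igf1r, with 0.00. Calcr, which encodes the calcitonin receptor that the amylin receptor is built on, had 0 UMIs in insulin cells of both libraries, which allows up to 0.0148 CPM in CD and 0.0151 in HFD. With trimmed mean scaling in place of total UMIs, the number past 1.5-fold was the same in each of the 4 lists.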

How the data were processed

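Droplet 3′ v3 libraries (10x Genomics) of islet cells were analysed, 1 per group. The deposited matrices hold raw UMI counts per gene and barcode with no normalization, which the authors made, per the submitters' processing notes, with Cell Ranger 6.0.1 on mm10. The file headers name software 3.0.2. No annotation release is named in the sources used here. Every barcode with a UMI is listed, so cells were selected here by the thresholds given above.

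UMIs were summed over the cells of each class and divided by all their UMIs (Python 3.11.15, numpy 2.4.6, scipy 1.17.1). Alternatives used trimmed mean (TMM) factors of edgeR 4.0.16 in R 4.3.3, doublet scores from scrublet in scanpy 1.11.5 (removed at 0.8% per 1000 kept barcodes), cells thinned to 1500 UMIs, other thresholds and values per cell. With 1 library per group there was no test between groups. A gene was compared with at least 50 UMIs in its higher library and called past 1.5-fold. Coverage of the Clopper-Pearson intervals, thinning and calls were tested on simulated data. Endothelial, macrophage and mesenchymal cells had at least 3 markers of their list with a UMI and met no hormone rule. The list genes named are the 2 with the most UMIs, the 2 with the farthest ratio, and a few added after their values were seen. The 5 closest genes were named for each ratio and pattern. The genes and lists were chosen with earlier results of these data known.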

Additional observations from a re-analysis of the deposited data

How the results depend on the processing

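No paired analysis was possible because both libraries carry the replicate number 1 and share no second number. With 1 library per group, leaving a library out was not possible. Medians per cell, the Cd79a split, insulin cells of at least 10000 UMIs and class cells under 10% insulin were alternatives added after seeing the data. The cause of each shift below was not tested. Counting intervals are narrow at this depth, so small shifts exceed them.

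The difference in the share of insulin cells was below 0 under all 6 alternatives (-6.37 to -0.48 points). Where insulin cells began at 50%, it was -0.48 with an interval that spans 0 (-2.35 to 1.40). It was -2.94 with a mitochondrial limit of 10%. Counting only insulin cells of at least 10000 UMIs, against all kept cells, it was -2.78. The difference in Ins1 share stayed positive under all 11: 0.76 and 0.50 with at least and fewer than 2 Cd79a UMIs, 0.56 at 10000 UMIs or more, 1.06 from medians, 0.88 from means per cell, 0.62 without the highest doublet scores and 0.56 from 50% insulin. The log2 ratio of Iapp to insulin stayed negative under all 12: -0.18 and -0.095 with at least and fewer than 2 Cd79a UMIs, -0.20 at 10000 UMIs or more, -0.22 from medians, -0.22 from means, -0.21 thinned, -0.20 without doublets and -0.20 with the mitochondrial limit of 10%.

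Insulin in δ cells (log2 ratio -0.07) was positive in 6 of 12 alternatives: 0.53 under 10% insulin, 0.58 from medians, 0.16 with cells of more than 1 rule kept, 0.46 with thresholds doubled, 0.32 from means and 0.31 thinned. It was -0.087 with TMM, -0.11 with 3000 UMIs, -0.16 with thresholds halved, -0.020 without doublets and -0.13 with the mitochondrial limit. In α cells (0.08) it turned to -0.51 with cells of more than 1 rule kept and to -0.00074 per UMI outside hormones. It was 0.37 under 10% insulin, 0.40 from medians, 0.10 with TMM, 0.31 and 0.16 with thresholds doubled and halved, 0.22 from means, 0.23 thinned, 0.27 without doublets and 0.039 with the mitochondrial limit. In PP cells (0.22) it stayed positive: 0.46 under 10% insulin, 0.44 from medians, 0.31 with TMM, 0.014 with cells of more than 1 rule kept, 0.42 and 0.29 with thresholds doubled and halved, 0.24 from means, 0.24 thinned, 0.39 without doublets, 0.21 per UMI outside hormones and 0.17 with the mitochondrial limit.

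Iapp in δ cells (log2 ratio -0.27) stayed negative under all 12 alternatives: -0.20 under 10% insulin, -0.22 from medians, -0.29 with TMM, -0.26 with 3000 UMIs, -0.19 with cells of more than 1 rule kept, -0.17 with thresholds doubled, -0.21 from means, -0.22 thinned and -0.25 without doublets. The log2 ratio of Iapp to insulin in δ cells over barcodes of 10 to 100 UMIs stayed above 1.6 throughout. In CD (2.73) it was 3.38 under 10% insulin, 2.74 with 3000 UMIs, 1.90 with cells of more than 1 rule kept, 3.26 and 2.56 with thresholds doubled and halved, 2.68 against barcodes of 100 to 500 UMIs, 2.76 without doublets and 2.75 with the mitochondrial limit. In HFD (2.64) it was 2.76, 2.71, 1.65, 2.74 and 2.56 in the same order, and 2.72 with the mitochondrial limit. With genes of at least 1 UMI in each library, 4323 genes passed 1.5-fold in insulin cells, 3401 in α, 3504 in δ and 3218 in PP cells, against 1802, 841, 719 and 557.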
